A study of Bos taurus with 12 samples.

Results

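Ribosome biogenesis factors are the proteins that make and assemble ribosomes without being part of the finished particle. A list of 60 such genes was followed in rumen papillae, the finger-like folds of the rumen wall. A listed gene was taken as measured where a probe set of the array named it alone, and with several such probe sets the one with the largest SD over all 12 arrays was used. This gave 50 of the 60 genes, out of 9155 genes named on the array. BOP1, NIP7, NOP58, NPM1, RIOK1, RRP1B, RRP8, RRS1, UTP20 and WDR12 were not analysed here. Papillae of the ventral sac came from 4 Holstein dairy cows, each sampled once on a high forage diet (week 0, the control) and again during a grain challenge, at weeks 1 and 3. Each week had 4 arrays, 1 per cow. All cows had been on forage first and then on grain, and none stayed on forage, so diet and calendar week cannot be told apart.

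Ribosomes are built in the nucleolus, where RNA polymerase I transcribes a long precursor RNA. Small nucleolar ribonucleoproteins guide chemical modification of this precursor, the small subunit processome folds and cleaves it, and separate sets of factors then mature the small and the large subunit and take them to the cytoplasm. The pathway is among the largest costs of a growing cell, and its factors are typically high where cells grow and divide, as in the basal layer of a stratified epithelium such as that of the rumen. The listed genes were grouped by these roles. Of the measured genes 5 of 7 act in the nucleolus and in transcription of ribosomal DNA, 6 of 7 in small nucleolar ribonucleoproteins, and 5 of 5 in UtpA, the subcomplex that binds the precursor first. A further 12 of 13 belong to the rest of the small subunit processome, 8 of 9 to small subunit maturation and export, and 14 of 19 to large subunit assembly.

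Values are log2 signals, each probe set being set to 0 at its own median across the 12 arrays. They show how a gene differed between arrays and not how strongly it was expressed, so the tissue could not be checked by the level of its markers, and genes cannot be ranked against each other by level. The samples are bulk tissue, in which fewer cells of a type and less RNA per cell cannot be told apart. The 18 hybridization control probe sets, for RNA added to each sample, averaged 0.49 and 0.48 on the arrays of cow 1 at weeks 0 and 1 and 0.72 on that of cow 2 at week 0. The other 9 arrays had -0.32 to 0.05. Results were therefore also computed without these 3 high-control arrays. A measure of RNA integrity, the 3' minus 5' signal of 6 control transcripts, averaged -0.00 at week 0, -0.03 at week 1 and 0.06 at week 3, and was higher at week 3 than at week 1 in all 4 cows.

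Most ribosome biogenesis factors had their highest mean at week 1, the first on grain, and were lowest at week 3. In 41 of the 50 genes the mean of week 1 was above those of weeks 0 and 3, against 48.1% of all named genes. The full order of week 1 above week 0 above week 3 was found in 32 of 50, against 12.2% of named genes. Week 1 was the highest of a cow's 3 samples in all 4 cows for 9 genes, against 1.93% of named genes. The named genes include many that hardly varied. Without the 40% of probe sets of lowest SD, 39 of 48 remaining factors had their highest mean at week 1 against 36.2% of named genes, and 31 of 48 followed the full order against 15.2%. Without the 3 high-control arrays 30 of 50 factors, 60%, had their highest mean at week 1 against 49.9% of named genes, and 21, or 42%, followed the full order against 9.61%. Blocking on the cow in that fit gave 35, or 70%, against 51.2%, and 25, or 50%, against 14.6%. With cow 1 left out these counts were 30, against 49.96%, and 24, against 12.3%. A test over the 3 weeks together (limma moderated F test, unadjusted p under 0.05) was passed by 13 of 50 factors, against 6.9% of named genes, and by none after Benjamini-Hochberg adjustment over all 24016 probe sets.

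**Figure D1:**
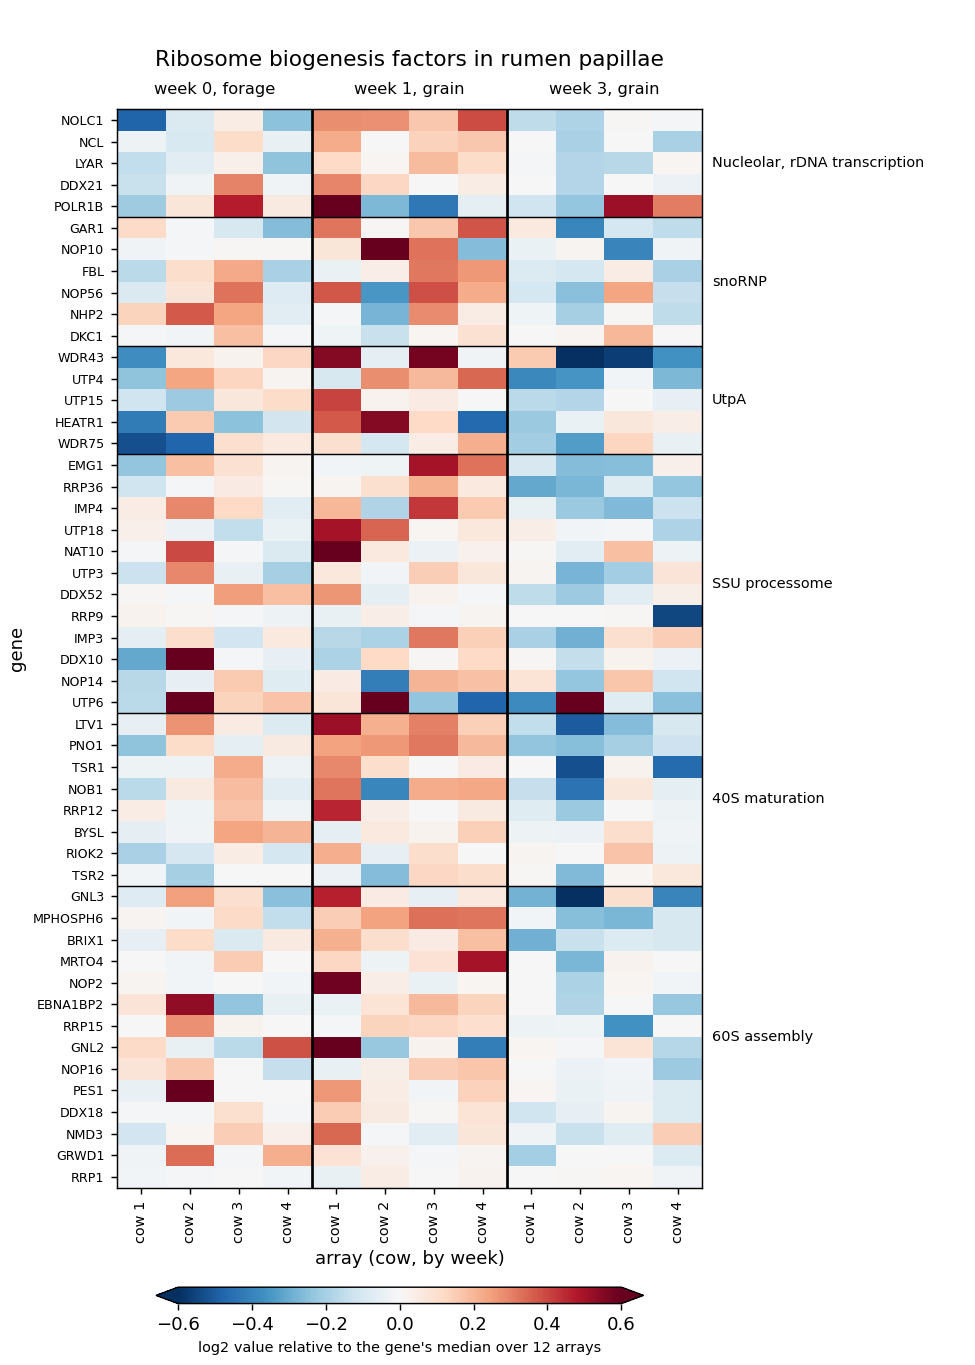
Log2 value of each of the 50 measured factors (rows, by role) on each of the 12 arrays (columns, by week and cow), on a colour scale centred on the gene's own median at 0. The week 1 columns hold the most genes above 0 (32 to 43 of 50) and the week 3 columns of cows 2 and 4 the fewest (4 and 10).

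The array by array counts show how far the cows shared this pattern. At week 0 the number of factors above their own median was 13 in cow 1, 26 in cow 2, 32 in cow 3 and 19 in cow 4. At week 1 it was 36, 32, 40 and 43 in the same order of cows. At week 3 it was 17, 4, 28 and 10. Every week 1 array thus had at least as many factors above their median as any array of weeks 0 and 3, with a tie at 32 between week 1 of cow 2 and week 0 of cow 3. The median over the 50 factors ran from -0.05 to 0.05 on the arrays of week 0, from 0.04 to 0.18 at week 1 and from -0.19 to 0.00 at week 3. Cow 3 had the highest median at weeks 0 and 3, and cow 2 had the lowest at week 3.

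**Figure D2:**
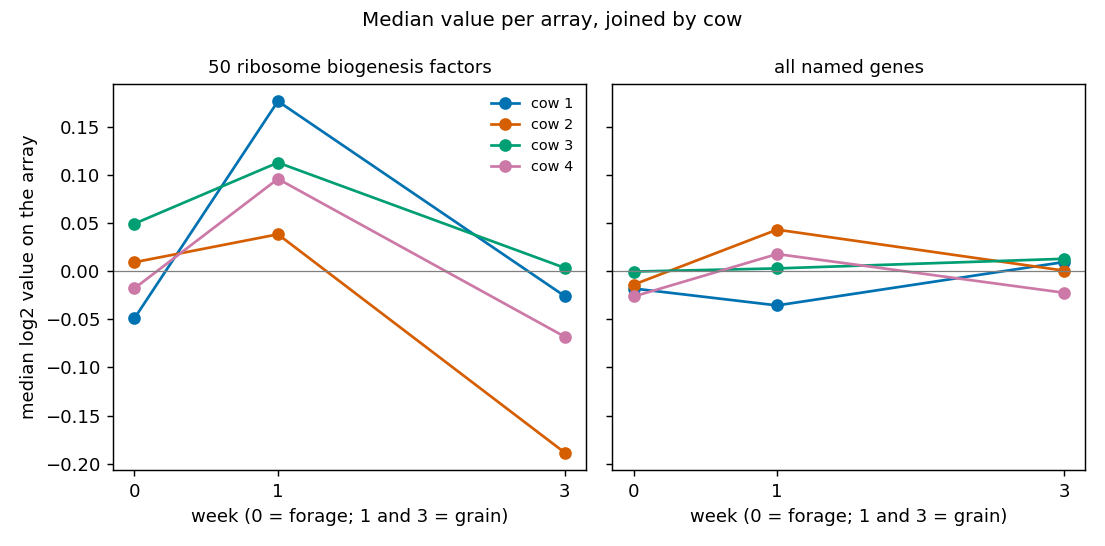
Median log2 value per array of the 50 ribosome biogenesis factors and of all named genes, with weeks on the horizontal axis and 1 line per cow. For the 50 factors all 4 lines go down from week 1 (0.04 to 0.18) to week 3 (-0.19 to 0.00).

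Week and cow accounted for different shares of the variation in these genes than in others. The median share of variance between weeks was 31.4% over the 50 factors and 13.4% over all named genes. The median share between cows was 24.0% and 28.6%. The share between weeks exceeded that between cows in 29 of 50 factors, 58%, against 24.6% of named genes. PNO1 had 82.6% of its variance between weeks, and UTP6 had 82.1% between cows. The spread itself was small for most factors: the SD over the 12 arrays ran from 0.0219 for RRP1 to 0.525 for WDR43, with a median of 0.191.

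All 3 pairs of weeks were compared, and they share arrays, so the comparisons are not independent of one another. Week 1 against week 0 concerned the start of grain feeding. Of the 50 factors 41 were higher at week 1, against 63.3% of named genes, and their median log2 difference was 0.10, against 0.02 for named genes. At an unadjusted p under 0.05 (limma, n = 4 cows a week) 7 factors were higher, against 3.76% of named genes, and none was lower, against 2.85%. All 4 cows were higher in 10 factors, against 7.48%, and lower in none, against 5.29%. The 4 values of week 1 lay entirely above those of week 0 in 3 factors, NOLC1, PNO1 and MPHOSPH6, against 2.21% of named genes. No factor passed adjustment over all probe sets. The smallest adjusted p of a factor was 0.686 (limma), and no probe set of the array passed, with 1237, or 5.15%, at an unadjusted p under 0.05. With the cow as a block 2 probe sets, or 0.00833%, passed, neither of them a factor. Without the 40% of probe sets of lowest SD 39 of 48 factors were higher, against 52.9% of named genes. The median difference by cow was 0.25 in cow 1, -0.04 in cow 2, 0.05 in cow 3 and 0.11 in cow 4.

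Among the nucleolar proteins NOLC1, a chaperone of small nucleolar ribonucleoproteins, had the smallest p of the factors at week 1. Its values were -0.48, -0.08, 0.05 and -0.25 at week 0 in cows 1 to 4. They were 0.28, 0.28, 0.16 and 0.39 at week 1. The 4 week 1 values were all above the 4 of week 0, and cow 1 had the lowest value on forage. The difference was 0.47 ± 0.10 (SE, n = 4 cows, limma, adjusted p = 0.686), or 1.38-fold, and the gene's other probe set was at 0.24. LYAR, a nucleolar zinc finger protein, was at 0.21 ± 0.07, with -0.15, -0.06, 0.03 and -0.24 at week 0 and 0.12, 0.01, 0.19 and 0.11 at week 1, so that the weeks overlapped through cow 3 on forage. NCL, nucleolin, which binds precursor RNA in the nucleolus, was higher in all 4 cows by 0.03 to 0.26, with a mean difference of 0.15 ± 0.07. DDX21, a nucleolar RNA helicase, was at 0.08 ± 0.09, and turned to -0.0032 after quantile normalization and to -0.08 without the 3 high-control arrays. POLR1B, a core subunit of RNA polymerase I, was at -0.07 ± 0.28 and ranged from -0.90 to 1.08 between cows, with cow 1 the only one higher.

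The small nucleolar ribonucleoproteins differed among themselves. GAR1, NHP2, NOP10 and DKC1 form the core of the particles that guide pseudouridylation, and FBL and NOP56 belong to those that guide methylation. GAR1 was higher in all 4 cows, at 0.28 ± 0.11. FBL, the methyltransferase, was at 0.15 ± 0.11, NOP56 at 0.10 ± 0.17 and NOP10 at 0.20 ± 0.16, each higher in 3 cows. DKC1, the pseudouridine synthase, was at -0.05 ± 0.07 and NHP2 at -0.16 ± 0.12. Without the 3 high-control arrays NOP56 turned to -0.04.

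The median of UtpA was 0.28, and all 5 of its measured subunits were higher at week 1. HEATR1 was at 0.30 ± 0.20, WDR43 at 0.30 ± 0.29, WDR75 at 0.28 ± 0.16, UTP15 at 0.16 ± 0.10 and UTP4 at 0.15 ± 0.13. Only UTP4 was higher in every cow, by 0.04 to 0.33. The median of the 5 was 0.62 in cow 1, 0.24 in cow 2, 0.06 in cow 3 and -0.10 in cow 4. Without the 3 high-control arrays 3 of 5 were higher, with WDR75 at -0.02 and UTP15 at -0.07. In the rest of the small subunit processome 9 of 12 were higher. UTP18 was at 0.28 ± 0.10 and RRP36, which acts in early cleavage of the precursor, at 0.11 ± 0.06, both higher in all 4 cows. NAT10, the acetyltransferase of small subunit RNA, was at 0.22 ± 0.23, a value set by cow 1 with 1.11 at week 1 against -0.03 to 0.06 in the other cows.

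Among the factors that mature the subunits PNO1 and MPHOSPH6 had the smallest p. PNO1 recruits the nuclease NOB1 to the small subunit precursor. Its values were -0.24, 0.11, -0.06 and 0.06 at week 0 and 0.24, 0.26, 0.31 and 0.20 at week 1. No week 1 value reached down to the week 0 range, and the week 1 values lay close together. The difference was 0.28 ± 0.07 (SE, n = 4 cows; limma, adjusted p = 0.686). NOB1 itself was at 0.09 ± 0.16, higher in 3 cows and lower by 0.45 in cow 2. RIOK2, a kinase of late small subunit maturation, was higher in all 4 cows, at 0.16 ± 0.07. MPHOSPH6, a cofactor of the nuclear exosome in large subunit RNA maturation, had 0.01, -0.02, 0.11 and -0.15 at week 0 and 0.15, 0.24, 0.33 and 0.32 at week 1, a difference of 0.27 ± 0.07 without overlap of the weeks. Of the large subunit factors 12 of 14 were higher, or 8 after quantile normalization and 9 with each array centred. PES1, of the complex that joins it with BOP1 and WDR12, was at -0.03 ± 0.13 and NMD3, the export adaptor, at 0.07 ± 0.09. Without the 3 high-control arrays NOB1 was at -0.04, PES1 at 0.06 and NMD3 at -0.09.

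The week 1 excess over forage depended on the scaling and on single arrays. Without the 3 high-control arrays 32 of 50 factors, 64%, were higher against 62.5% of named genes, a share close to the background. Their median was then 0.06 against 0.04, and 5 of 50, or 10%, were higher at an unadjusted p under 0.05 against 9.77% of named genes, with 2 lower. That fit set cows 3 and 4 at week 0 against cows 2 to 4 at week 1, so cow and week were partly mixed. Once cows were blocked in it, 37 of 50 factors, 74%, were higher against 62.1% of named genes. Their median was 0.11 against 0.04, and 6, or 12%, were higher at an unadjusted p under 0.05 (limma) against 5.92%. Blocking in this fit was a choice made after seeing the data. With cow 1 left out 31 of 50, 62%, were higher against 61.6%, with a median of 0.03 against 0.04. With each array centred on its median 37 factors were higher against 47.6% of named genes, and after quantile normalization 33 were against 46.9%. Leaving out the week 1 array of cow 1, or all arrays of cow 1, brought the count at an unadjusted p under 0.05 to 4, or 8%, against 25.7% and 11.2% of named genes, and leaving out cow 2 brought it to 11, against 2.98%. With array weights, of which the week 1 array of cow 1 got the lowest, NOLC1, PNO1, MPHOSPH6 and LYAR passed adjustment by limma, among 9970 probe sets that did so, and 29.6% of named genes were higher at an unadjusted p under 0.05 against 18% of the factors.

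Weeks 3 and 1 were then set against each other, to see how the factors differed within the grain period. Of the 50 factors 47 were lower at week 3, against 59.2% of named genes, and the median difference was -0.19, against -0.01 for named genes. At an unadjusted p under 0.05 (limma) 17 factors were lower, against 3.16% of named genes, and none was higher, against 3.68%. All 4 cows were lower in 20 factors, against 5.68%, and higher in none, against 7.35%. The weeks did not overlap in 8 factors, with week 3 the lower, against 1.69% of named genes. These 8 were NOLC1, PNO1, MPHOSPH6, RRP36, UTP15, BRIX1, LYAR and LTV1. Without the 40% of probe sets of lowest SD 45 of 48 factors were lower against 50.1% of named genes, 16 of 48 were so at an unadjusted p under 0.05 against 4.23%, and 20 of 48 were so in all 4 cows against 7.49%. The median difference was negative in every cow, at -0.28, -0.19, -0.08 and -0.21 in cows 1 to 4. No factor and no probe set passed adjustment over all probe sets, with 1172, or 4.88%, at an unadjusted p under 0.05.

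**Figure D3:**
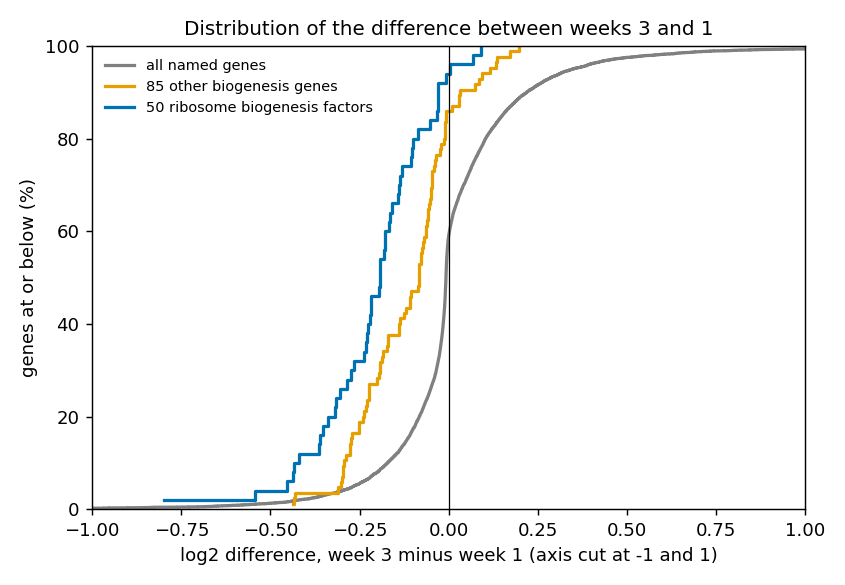
Cumulative share of genes (vertical axis, percent) at or below each log2 difference of week 3 minus week 1 (horizontal axis, shown from -1 to 1) for the 50 factors, the 85 other genes of the pathway and all named genes. The factors lie to the left, with 47 of 50 below 0 and a median of -0.19 against -0.01 for all named genes.

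The count of lower factors changed by at most 3 of 47 with the scaling or without the high-control arrays. With each array centred 46 of 50 factors were lower against 46.4% of named genes, and after quantile normalization 46 were against 51.7%. Without the 3 high-control arrays 44 were lower against 58.3%, with a median of -0.16 against -0.03, and 17, or 34%, were lower at an unadjusted p under 0.05 against 5.14% of named genes. With each array and each cow left out in turn (16 fits), 44 to 49 factors were lower and 12 to 21 were so at an unadjusted p under 0.05. Named genes stood at 3.45% without cow 4 (12 factors) and 3.46% without the week 0 array of cow 2 (21 factors).

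PNO1 had the smallest p of all factors, ranking 4 among the 24016 probe sets. Its week 3 values were -0.24, -0.25, -0.20 and -0.12, against 0.20 to 0.31 at week 1. All 4 week 3 values lay below 0 and below the forage values of cows 2 to 4, while cow 1 had -0.24 on forage as well. The difference was -0.45 ± 0.07 (SE, n = 4 cows; limma, adjusted p = 0.230), 1.37-fold lower at week 3. Over 25 alternatives its adjusted p ran from 0.0417 to 0.992. The lowest came without the 3 high-control arrays, where PNO1 was at -0.46 and passed the threshold of 0.05. Adding a cow block to that fit gave an adjusted p of 0.142 by limma, and the call was lost. Its difference stayed between -0.50 and -0.43 when each array and each cow was left out in turn (16 fits).

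LTV1, which accompanies the small subunit out of the nucleus, had the largest difference among these non-overlapping factors. At week 1 it was at 0.51, 0.21, 0.30 and 0.14, and at week 3 at -0.15, -0.50, -0.26 and -0.10. Every week 3 value lay below 0 and cow 2 was lowest. The difference was -0.54 ± 0.11 (limma, adjusted p = 0.548), and a second probe set of the gene was at -0.39. TSR1, a GTPase-like assembly factor, was at -0.35 ± 0.13 with cows 2 and 4 low at week 3, at -0.53 and -0.46, and cows 1 and 3 near 0. NOB1 was lower in all 4 cows, at -0.24 ± 0.16. RIOK2, at -0.03 ± 0.07, BYSL, at -0.03 ± 0.07, and TSR2, at -0.03 ± 0.10, had little difference. Among small subunit maturation factors 8 of 8 were lower, with a median of -0.23, though RIOK2 turned to 0.01 after quantile normalization and to 0.02 without the 3 high-control arrays.

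**Figure D4:**
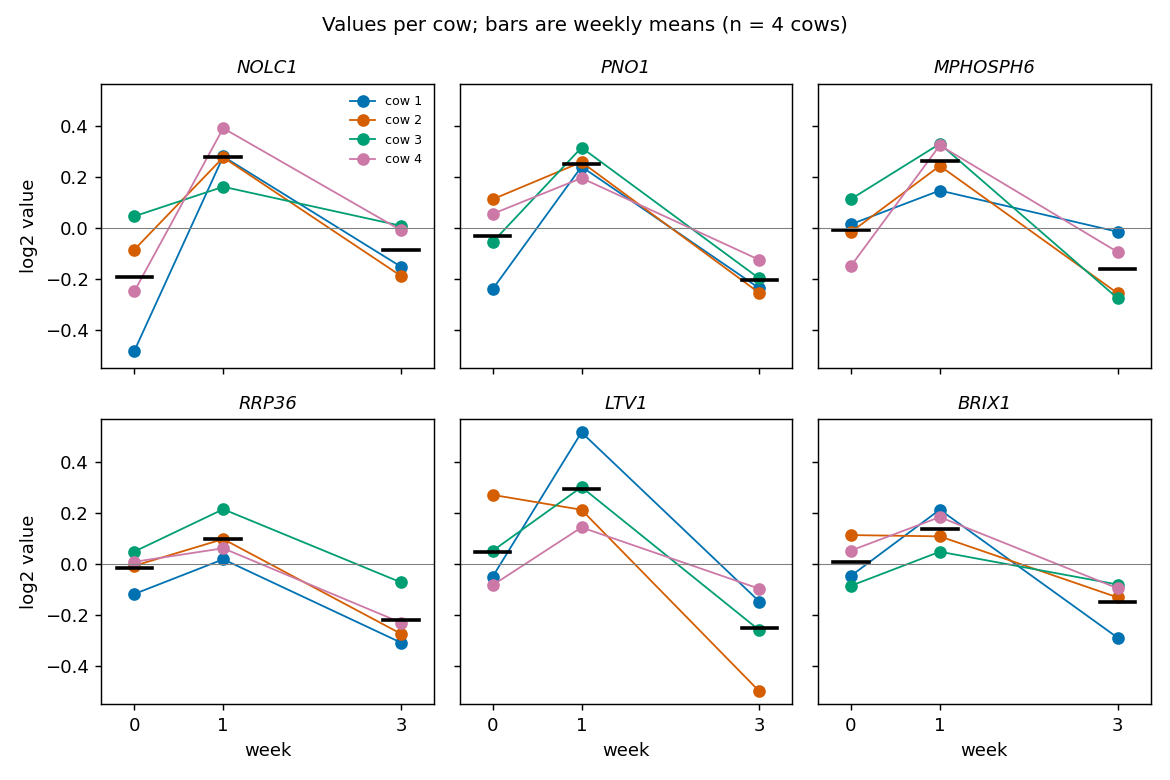
Log2 values of 6 factors at weeks 0, 1 and 3, with 1 line per cow and horizontal bars for the weekly means (n = 4 cows). In each of the 6 genes all 4 week 3 values lie below all 4 week 1 values, as for PNO1 with -0.25 to -0.12 against 0.20 to 0.31.

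Of the small subunit processome 11 of 12 factors outside UtpA were lower at week 3 than at week 1. RRP36 had 0.02, 0.10, 0.21 and 0.06 at week 1 and -0.31, -0.27, -0.07 and -0.23 at week 3. The difference was close to equal in the 4 cows, from -0.37 to -0.29. Its difference was -0.32 ± 0.06 (SE, n = 4 cows; limma, adjusted p = 0.548, or 0.0570 with the cow as a block). UTP18, at -0.27 ± 0.10, IMP4, a component of the U3 particle, at -0.32 ± 0.12, and EMG1, a methyltransferase of small subunit RNA, at -0.34 ± 0.13, were each lower in all 4 cows. UTP6 was at 0.00 ± 0.32 (-0.12 after quantile normalization), and its values were 0.70 to 0.79 in all 3 samples of cow 2. NAT10 turned to 0.01 without the 3 high-control arrays.

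The median of UtpA was -0.22, and all 5 of its measured subunits were lower. UTP4 went from -0.10, 0.28, 0.19 and 0.35 at week 1 to -0.39, -0.35, -0.01 and -0.27 at week 3. The difference was -0.44 ± 0.13 (limma, adjusted p = 0.710) and was negative in each cow, although the weeks overlapped through cow 1 at week 1. WDR43 had the largest difference of all factors, -0.80 ± 0.29, with a spread to match: its week 3 values were 0.16, -1.38, -0.56 and -0.37. Its other probe sets were at -0.29 and -0.32. UTP15 was at -0.22 ± 0.10 and HEATR1 at -0.18 ± 0.20.

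In the nucleolar group NOLC1 was at -0.15, -0.19, 0.01 and -0.01 at week 3, all below its lowest week 1 value of 0.16. The difference was -0.36 ± 0.10 (limma, adjusted p = 0.697), and its other probe set was at -0.27. NCL was at -0.23 ± 0.07 and LYAR at -0.19 ± 0.07, each lower in all 4 cows. POLR1B was the exception at 0.09 ± 0.28, higher in 3 cows and lower by 0.98 in cow 1. Of the ribonucleoprotein genes GAR1, at -0.36 ± 0.11, and FBL, at -0.23 ± 0.11, were lower in all 4 cows, NOP56 was at -0.22 ± 0.17 and lower in 3, and DKC1 was at 0.07 ± 0.07 and higher in 3.

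The median of the large subunit factors was -0.18, and all 14 were lower at week 3 than at week 1. MPHOSPH6 had -0.01, -0.26, -0.27 and -0.09 at week 3, below every week 1 value. Its difference was -0.42 ± 0.07 (SE, n = 4 cows; limma, adjusted p = 0.480). BRIX1, an assembly factor bound early to the precursor, went from 0.21, 0.11, 0.05 and 0.18 to -0.29, -0.13, -0.08 and -0.10, a difference of -0.29 ± 0.06. GNL3, nucleostemin, was at -0.43 ± 0.17 and lower in 3 cows. PES1, at -0.14 ± 0.13, was lower in all 4 cows and NMD3, at -0.11 ± 0.09, in 3. RRP1, at -0.01 ± 0.02, hardly varied on any array and turned above 0 after centring or quantile normalization, and GNL2 went from -0.18 to 0.18 without the 3 high-control arrays.

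**Figure D5:**
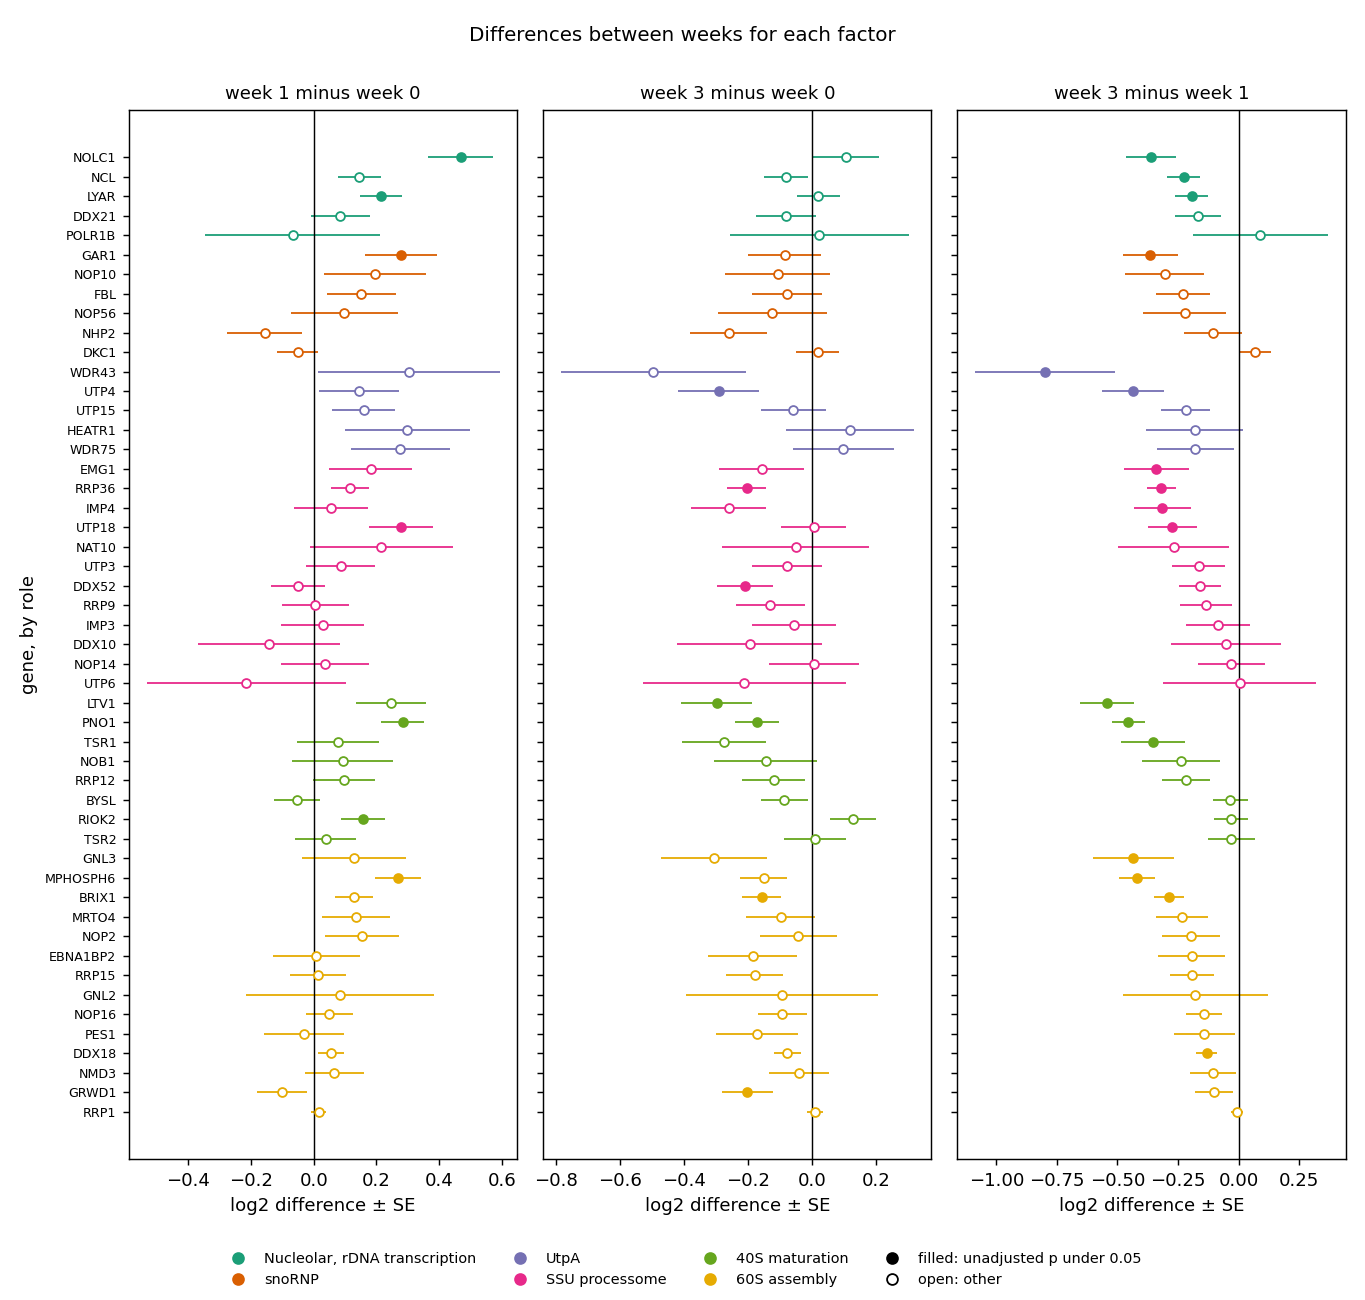
Log2 difference with its SE (n = 4 cows a week) of each factor, by role, in the 3 comparisons. Filled points have an unadjusted p under 0.05: 7 of 50 to the right of 0 for week 1 minus week 0, 7 to the left for week 3 minus week 0 and 17 to the left for week 3 minus week 1.

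Where a gene had several probe sets, they bore on how far the chosen one stood for the gene. Of the 50 factors 35 had 1 probe set and 15 had several, 37 probe sets in all. For week 3 against week 1 all probe sets of a gene had the same sign in 14 of the 15, POLR1B being the exception. For week 1 against week 0 this held in 10 of 15, and for week 3 against week 0 in 5 of 15. Several of the unchosen probe sets hardly varied, as for NOP56 with an SD of 0.0364 and -0.0015 for week 3 against week 1. Of all probe sets 66.6% were lower in that comparison, and 73.0% and 72.8% were higher at weeks 1 and 3 against week 0. The signs of such flat probe sets were not told apart from this array-wide shift. EBNA1BP2, an assembly factor of the large subunit, was at -0.19 ± 0.14 by the probe set used in week 3 against week 1. Its other probe sets were at -0.35, -0.04 and -0.01.

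Week 3 against week 0 concerned longer grain feeding against forage. Of the 50 factors 39 were lower at week 3, against 35.5% of named genes, with a median difference of -0.10, against 0.02. At an unadjusted p under 0.05 (limma) 7 were lower, against 1.89% of named genes, and none was higher, against 3.13%. In all 4 cows 11 factors were lower, against 6.34%, and 2 were higher, against 28.1%. Without the 40% of probe sets of lowest SD 38 of 48 were lower, against 44.8%. The weeks did not overlap in LTV1 alone, against 1.1% of named genes. No factor passed adjustment (limma, lowest adjusted p = 0.901, or 0.209 with the cow as a block), nor did any probe set, with 933, or 3.88%, at an unadjusted p under 0.05. The median difference by cow was 0.00, -0.23, -0.09 and -0.04 in cows 1 to 4.

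The count at an unadjusted p under 0.05 in this comparison rested on cow 2 in particular. With cow 2 left out no factor was lower at an unadjusted p under 0.05 by limma, against 1.34% of named genes. The median was then -0.06 against 0.02, and 33 factors, 66%, were lower against 32.7%. Leaving out only the week 0 array of cow 2 brought the count of 7 to 2, and leaving out only its week 3 array brought it to 3. It was 4, or 8%, without cow 3 against 1.22% of named genes, and 3, or 6%, without cow 4 against 1.57%. Leaving out the 3 high-control arrays gave 39 lower factors against 32.7% of named genes, with a median of -0.13 against 0.02 and 6, or 12%, at an unadjusted p under 0.05 against 2.48%. With each array centred 43 were lower against 48.1% of named genes, and after quantile normalization 45 were against 52.6%.

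RRP36 had the smallest p of the factors in this comparison. It was at -0.12, -0.01, 0.05 and 0.01 at week 0, and its week 3 values, -0.31, -0.27, -0.07 and -0.23, overlapped these through cow 3. The difference was -0.20 ± 0.06 (SE, n = 4 cows; limma, adjusted p = 0.901), lower in every cow. LTV1 was at -0.05, 0.27, 0.05 and -0.08 at week 0, all above its week 3 values, a difference of -0.30 ± 0.11. Without cow 2 that difference was -0.14. The second probe set of LTV1 was at -0.09 with all cows. UTP4 was at -0.29 ± 0.13, IMP4 at -0.26 ± 0.12, NHP2 at -0.26 ± 0.12 and DDX52, a helicase of the processome, at -0.21 ± 0.09, each lower in all 4 cows. PNO1 was at -0.17 ± 0.07 and lower in 3 cows.

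The nucleolar proteins stood near their forage values at week 3, with NOLC1 at 0.11 ± 0.10, NCL at -0.08 ± 0.07, LYAR at 0.02 ± 0.07 and POLR1B at 0.02 ± 0.28. FBL was at -0.08 ± 0.11, NOP56 at -0.12 ± 0.17, HEATR1 at 0.12 ± 0.20, NOB1 at -0.14 ± 0.16, PES1 at -0.17 ± 0.13 and NMD3 at -0.04 ± 0.09. RIOK2, at 0.13 ± 0.07, and DKC1, at 0.02 ± 0.07, were the 2 factors higher in all 4 cows. POLR1B turned to -0.02 and LYAR to -0.01 after quantile normalization and, without the 3 high-control arrays, POLR1B was at -0.14 and DKC1 at -0.03.

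A wider list held 116 other genes of the pathway, of which 85 were measured. It includes further processome and assembly factors, exosome subunits and subunits of RNA polymerases I and III. At week 1 against week 0, 66 of 85, or 77.6%, were higher against 63.3% of named genes. At an unadjusted p under 0.05 3 were higher, or 3.53%, which is near the 3.76% of named genes, and 0 were lower. At week 3 against week 1, 73 of 85, or 85.9%, were lower against 59.2%, with a median of -0.08. At that threshold 8 were lower, or 9.41% against 3.16%, and none was higher, against 3.68%. At week 3 against week 0, 51 of 85, or 60%, were lower against 35.5%, with 1 higher and 2 lower at that threshold, the latter 2.35% against 1.89%. None passed adjustment by limma.

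Within this wider list the genes of smallest p are given as values. At week 1 against week 0 these were UTP25, a processome factor, at 0.33 ± 0.10, RSL24D1, which holds the place of a ribosomal protein during large subunit assembly, at 0.18 ± 0.06, and KRR1, a processome factor, at 0.19 ± 0.08. For week 3 against week 1 RSL24D1 was at -0.28 ± 0.06 and lower in all 4 cows (limma, adjusted p = 0.548), NOC2L at -0.30 ± 0.10 and KRR1 at -0.24 ± 0.08. At week 3 against week 0 RUVBL1, an ATPase that helps assemble ribonucleoproteins, was at -0.22 ± 0.08, EXOSC2, an exosome subunit, at -0.27 ± 0.11 and POLR1D, shared by RNA polymerases I and III, at 0.29 ± 0.12.

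Regulators of growth that act upstream of ribosome production were measured for 12 of 20 listed genes. At week 1 against week 0, 5 of 12, or 41.7%, were higher against 63.3% of named genes, with a median of -0.03. At week 3, 10 of 12, or 83.3%, were lower than at week 0, against 35.5%, with a median of -0.08. Likewise 10 of 12 were lower than at week 1, against 59.2%, with a median of -0.04 and none at an unadjusted p under 0.05. MYC, a transcription factor that drives ribosome biogenesis genes in many cells, was at 0.07 ± 0.22, -0.07 ± 0.22 and -0.15 ± 0.22 for week 1 against 0, week 3 against 0 and week 3 against 1. MAX, its partner, was at -0.24 ± 0.08 for week 3 against week 0, lower in all 4 cows, and at -0.17 ± 0.08 for week 3 against week 1. RHEB, the activator of the kinase mTOR, was at 0.16 ± 0.06 at week 1 and 0.15 ± 0.06 at week 3 against forage, higher in all 4 cows both times. AKT1 was at -0.26 ± 0.08 for week 1 against week 0 and at 0.17 ± 0.08 for week 3 against week 1. CDKN1A, an inhibitor of the cell cycle, was at -0.28 ± 0.14 and -0.30 ± 0.14 at weeks 1 and 3 against forage, and RPS6KB1, the S6 kinase, at -0.34 ± 0.21 for week 3 against week 1.

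The proteins of the ribosome itself had medians nearer 0 than the factors that build it. Over 67 cytosolic ribosomal protein genes the median difference was -0.03 for week 1 against week 0, -0.03 for week 3 against week 0 and -0.01 for week 3 against week 1. At week 1 against week 0, 45 of 67, or 67.2%, were lower against 36.7% of named genes. The median by cow was 0.04, -0.29, 0.04 and 0.11 in cows 1 to 4. In all 4 cows 0 were lower, against 5.29% of named genes, and 2 were higher, against 7.48%. At week 3 against week 0, 54 of 67, or 80.6%, were lower against 35.5%, a share like that of the factors (78%). The cows differed, with medians of -0.02, -0.27, 0.09 and 0.06 in cows 1 to 4. In all 4 cows 1 of 67 was lower, against 6.34% of named genes and 11 of the 50 factors, and 6 were higher, against 28.1%. None of the 67 had an unadjusted p under 0.05 there. For week 3 against week 1, 47 of 67, or 70.1%, were lower against 59.2%. At an unadjusted p under 0.05 2 of 67 were lower, or 2.99%, near the 3.16% of named genes. Proliferation genes, 20 of 24 measured, had medians of 0.09, 0.11 and -0.07 in the same order. For week 3 against week 1 that last median covers values from -0.54 to 0.82, with 9 genes higher and 11 lower. At an unadjusted p under 0.05 2 genes, or 10%, were so in each direction, against 3.68% of named genes higher and 3.16% lower. The cows differed, with medians of 0.09, 0.36, -0.46 and -0.07 in cows 1 to 4. In all 4 cows 3 genes were higher, against 7.35% of named genes, and 0 were lower, against 5.68%. The 9 higher ones were the cyclin, kinase and checkpoint genes of mitosis, among them CCNB2 at 0.82 ± 0.38, CCNB1 at 0.73 ± 0.34, CDK1 at 0.52 ± 0.23 and BUB1 at 0.45 ± 0.20. The lower ones act in DNA replication and nucleotide supply or, as E2F1, in their control, among them MCM6 at -0.54 ± 0.19 and MCM3 at -0.44 ± 0.18. None passed adjustment by limma, and these examples were picked after their values were seen.

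Markers of cell types that papillae can hold also differed between the same weeks. From week 1 to week 3 all 10 fibroblast and matrix genes were higher, with a median of 0.29, and their mean per array ran from -0.40 to 0.25 at week 1 and from 0.08 to 0.35 at week 3. Of 12 measured leukocyte genes 8 were higher, with a median of 0.50 and array means of -0.62 to 0.26 and -0.51 to 0.76. Of named genes 40.8% were higher in this comparison. Basal keratinocyte genes, 5 of 9 measured, had a median of -0.03 with array means of -0.27 to 0.19 and -0.39 to 0.01. Suprabasal genes, 7 of 13 measured, had a median of 0.03 but ran from -1.72 for DSG1 to 1.16 for DMKN, with 5 of 7 higher. At an unadjusted p under 0.05 2 were higher and 1 lower, against 3.68% and 3.16% of named genes. The 10 genes of endothelium and smooth muscle had a median of -0.03. The 3' to 5' difference of the control transcripts was higher at week 3 than at week 1 by 0.08 to 0.11 in the 4 cows. The part of these shifts in the lower values of the ribosome biogenesis factors was not tested.

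Against forage the same markers differed at week 1. All 5 basal keratinocyte genes were lower, with a median of -0.32, 5 of 7 suprabasal genes were lower, with a median of -0.45, and 8 of 12 leukocyte genes were lower, with a median of -0.36. Of 10 fibroblast and matrix genes 6 were higher, with a median of 0.27, and 6 of 10 endothelial and smooth muscle genes were lower, with a median of -0.07. Of named genes 63.3% were higher and 36.7% lower, so the fibroblast share of 60% was near the background. At an unadjusted p under 0.05 (limma) 5 fibroblast genes were higher, against 3.76% of named genes, and 1 was lower, against 2.85%. At that threshold 3 basal, 2 suprabasal and 2 endothelial and smooth muscle genes were lower. Of the leukocyte genes 1 was higher and 0 were lower. At week 3 against week 0 the medians were -0.36 for basal, -0.05 for suprabasal, 0.47 for fibroblast, 0.20 for leukocyte and -0.04 for endothelial and smooth muscle genes. Their part in the differences of the factors from forage was not tested.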

How the data were processed

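Biotin-labelled cRNA from 10 ug of total RNA per sample was hybridised to Affymetrix arrays, per the labels' protocols. The deposited log2 values are the authors' GCRMA output (background-corrected, normalized probe intensities), per the submitters' processing notes; for the version, "not given in the sources used here" applies. No source states the log base, which was taken as 2. Each deposited probe set was centred on its median over the 12 arrays. Arrays have no read depth, and 4 cows a week limit the precision.

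The 24016 probe sets other than 112 controls were fitted with limma 3.58.1 in R 4.3.3 (lmFit and eBayes, two-sided, 1 mean per week, no cow term), with Benjamini-Hochberg adjustment over all of them and a threshold of 0.05. Of these probe sets 13292 named 1 gene, 86 several and 10638 none in the array's annotation. Of the 13292 probe sets, 13263 had a gene ID found in the RefSeq table of ARS-UCD2.0, used for current symbols. Every gene, also in the background shares, was represented by its probe set of largest SD. The steps were tested on simulated data. These had no variation shared by the arrays of a cow, so the test cannot show how the fit without a cow term handles it.

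The same cows were sampled each week, which makes them pairs: deviations from the weekly means correlated at 0.321 to 0.692 between arrays of a cow and at -0.443 to 0.0627 between cows. Blocking on the cow was therefore an alternative. Others were centring, quantile normalization, array weights, a robust variance model, a filter on SD, the mean of a gene's probe sets, and leaving out arrays or cows. The replicates are separate animals.

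The genes and the lists were chosen with earlier results of these data known. Factors named with values were, in each comparison, up to 6 per direction with the smallest p among those with the same direction in all 4 cows, and in every comparison POLR1B, NCL, NOLC1, FBL, NOP56, DKC1, HEATR1, NOB1, PES1 and NMD3 (NPM1 and BOP1, also in the rule, were not measured). Of the wider pathway and of the growth regulators the 3 of smallest p were named, and MYC always. Other factors were named after their values were seen.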

Additional observations from a re-analysis of the deposited data

Results flagged for a closer look

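In 4 of the 72 sets of 4 cows examined, 1 cow stood far from the other 3, where chance gives about 5% of sets. The ratio is the gap to the nearest cow over the whole range, and it was set against Dixon's critical value for 4 samples. DKC1 in cow 3 was high at week 0, at 0.18 against -0.02 to -0.01 in the other cows (ratio 0.947), and again at week 3, at 0.20 against -0.00 to 0.02 (ratio 0.896). NOB1 was low in week 1 of cow 2, at -0.39 against 0.22 to 0.32 (ratio 0.862). PES1 was high in week 0 of cow 2, one of the high-control arrays, at 0.60 against -0.05 to 0.00 (ratio 0.926).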

How the results depend on the processing

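In the 16 fits without 1 array or 1 cow, 31 to 44 factors were higher for week 1 against week 0, 33 to 44 lower for week 3 against week 0 and 44 to 49 lower for week 3 against week 1. For week 1 against week 0 the share of higher factors came close to that of all named genes without the 3 high-control arrays (64% against 62.5%) and without cow 1 (62% against 61.6%). Blocking on the cow without the 3 arrays gave 74% against 62.1%. The medians in the 16 fits were 0.03 to 0.17, -0.14 to -0.06 and -0.23 to -0.15. Counts at an unadjusted p under 0.05 were 4 to 11, 0 to 9 and 12 to 21. In the first comparison named genes stood at 25.7% without week 1 of cow 1 (4 factors) and 2.98% without cow 2 (11). In the second they stood at 1.34% without cow 2 (0) and 1.33% without week 3 of cow 3 (9). In the third they stood at 3.45% without cow 4 (12) and 3.46% without week 0 of cow 2 (21). With the cow as a block the counts of 7, 7 and 17 in the fit used became 10, 8 and 21. The shares of named genes with the block were 5.25%, 2.95% and 4.21%. For week 1 against week 0 the count of 7 became 3, or 6%, after quantile normalization, against 2.12% of named genes. For week 3 against week 0 the count of 7 became 16, or 32%, after quantile normalization against 4.03% of named genes. With array weights 10 were lower, or 20%, against 4.33%. Without the probe sets of lowest SD the count was 3, with no share of named genes given. With the cow as a block and without the 3 high-control arrays it was 4, or 8%, against 2.71%, a setting chosen after seeing the data. The cause was not tested.

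No probe set passed adjustment in the fit used. For week 1 against week 0, 2 passed with the cow as a block, 9970 with array weights, 2 without those of lowest SD, 1 with the mean of a gene's probe sets, 5 without the 3 arrays and 1 without them and with the block. For week 3 against week 0 it was 2 after quantile normalization, 7 with array weights and 6 without the 3 arrays. For week 3 against week 1 it was 97 with array weights and 12 without the 3 arrays. Leaving out 1 array or 1 cow gave 0 to 45, 0 to 2 and 0 to 38, the highest of the first and last without week 1 of cow 1, whose array weight of 0.0618 was the lowest. With array weights NOLC1 (0.62, adjusted p = 0.0160), PNO1 (0.32, 0.0183), MPHOSPH6 (0.31, 0.0219) and LYAR (0.22, 0.0349) passed by limma for week 1 against week 0. With the block as well as without the 3 high-control arrays PNO1 lost its call for week 3 against week 1 (adjusted p = 0.142 by limma, against 0.0417 without the block).

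Of the 47 results of single genes, all kept their sign and side of the threshold with centring and with the block, 45 after quantile normalization and 40 without the 3 arrays. With all cows sampled each week the block leaves every difference unchanged, so with it only the side of the threshold could change. Without the 3 arrays NOP56 (-0.037), NOB1 (-0.038), PES1 (0.056) and NMD3 (-0.089) reversed for week 1 against week 0, and DKC1 (-0.033) and POLR1B (-0.14) for week 3 against week 0. After quantile normalization NMD3 (-0.027, week 1 against week 0) and POLR1B (-0.015, week 3 against week 0) reversed.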
